A study of Arabidopsis thaliana with 18 samples.

Results

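The genes described here are 8 Arabidopsis thaliana genes of membrane lipid remodelling, the exchange of phospholipids for lipids without phosphorus that plants carry out when phosphate is short. They were chosen by name from the 32833 genes of the deposited count files, with earlier results of these data known. Phospholipid breakdown is represented by NPC4 (AT3G03530, chr3:842499-845096, minus strand), NPC5 (AT3G03540, chr3:846221-848297, minus strand), PLDZ2 (AT3G05630, chr3:1635194-1640357, plus strand) and GDPD1 (AT3G02040, chr3:348167-350010, minus strand). Galactolipid synthesis is represented by MGD2 (AT5G20410, chr5:6896463-6898783, plus strand) and MGD3 (AT2G11810, chr2:4743162-4746813, plus strand). Sulfolipid synthesis is represented by SQD1 (AT4G33030, chr4:15935373-15937833, plus strand) and SQD2 (AT5G01220, chr5:86543-90117, minus strand). Coordinates are TAIR10.

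RNA with poly(A) tails from whole Col-0 seedlings was sequenced in 18 libraries, 3 for each of 6 groups. The groups were wild type, als3-1 and sog1-7, each collected 84 h after sowing from plates in constant light at pH 4.2. Within a genotype the gel held either no AlCl3 (0 mM) or 1.5 mM of it, and replicates carry the numbers 2, 3 and 4. The study's stated purpose was to find genes controlled by the DNA damage regulator SOG1 that act when aluminium (Al) stops root growth. The mutant als3-1 carries a mutation in ALS3, an ABC transporter-like protein needed for Al tolerance, and sog1-7 is a loss-of-function mutant described as Al tolerant. Each mutant is represented by 1 allele, and all 6 groups shared the low pH and the gel medium. It is not stated whether replicates were separate cultures, so p-values measure the spread among these samples and may reflect technical spread alone.

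Plant membranes hold much of the cell's phosphorus in the head groups of phospholipids. When phosphate is short, phospholipases C and D and phosphodiesterases break phospholipids down and free phosphate and head groups. The diacylglycerol backbone is then built into galactolipids and sulfolipid, which take over part of the place of phospholipids in plastid and other membranes. Transcripts of these enzymes are known to rise in phosphate-starved Arabidopsis under the transcription factor PHR1, which binds a short palindrome called P1BS.

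Library totals ran from 25.56 to 44.57 (median 35.1) in units of 1e6 counts. Levels are given as CPM, counts per 1000000 counts after TMM scaling. Before TMM scaling, 3 counts in a library stood at 0.0673 to 0.117 per 1000000 counts, a floor that covers counting error only. A group of 3 libraries stood apart by a share of reads on 4 ribosomal RNA genes of 0.0168% to 0.0285%, against 0.909% to 5.71% in the other 15 (als3-1 1.5 mM replicate 2 and both sog1-7 replicate 2 libraries, the low-rRNA libraries below). SOG1 stood at 13.6 to 19.5 CPM over all 18 libraries, and ALS3 at 3.28 ± 0.276 CPM (SD, n = 3) in wild type and 3.29 ± 0.65 CPM (SD, n = 3) in als3-1 at 0 mM, so transcript levels of the mutated genes do not check the genotype labels. Of 5 root markers, TIP2;3 (-4.17 ± 0.61, adjusted p = 0.000404) and TIP2;2 (-2.25 ± 0.51, adjusted p = 0.00942) fell with Al in als3-1 on the log2 scale by edgeR. The summed level of the root list was 4209 to 8866 CPM over all libraries. In als3-1 this sum did not fall, at 6808 ± 1169 CPM without Al and 7320 ± 1810 CPM with it (SD, n = 3 each). Of 3 seed markers, OLEO1 (3.67 ± 0.90, adjusted p = 0.0146) and EM6 (4.46 ± 0.84, adjusted p = 0.00272) rose with Al in als3-1 by edgeR. The summed seed level ran from 0.789 to 41.1 CPM in als3-1 and from 3.51 to 25.6 CPM in sog1-7 at 1.5 mM, against 2.33 CPM or less in the other 4 groups. The als3-1 libraries with and without Al thus overlapped in this sum. None of the 4 shoot markers was called in any of the 3 Al responses. In whole seedlings a change in the number of cells of a type and a change in RNA per cell cannot be told apart, and the part of these markers in the results below was not tested.

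The 1000 bases before the annotated start of each gene were searched for the P1BS letters GNATATNC, which read the same on both strands. At least 1 match lay before 6 of the 8 genes (75%), against 6552 of 32546 nuclear genes (20.1%). Within 300 bases of the start the figures were 4 of 8 (50%) and 6.44% of all genes. The sequences below show the match nearest to the start in 5 of these genes, in capitals, with its surroundings read 5′ to 3′ on the gene's own strand. They are shown because they are the letters that PHR1 is known to bind in front of phosphate-regulated genes.
NPC4, chr3:845292-845331, minus strand, match 219 bases before the start: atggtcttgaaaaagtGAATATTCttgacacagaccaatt
NPC5, chr3:849122-849161, minus strand, 848 bases: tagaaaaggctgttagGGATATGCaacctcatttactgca
PLDZ2, chr3:1634998-1635037, plus strand, 180 bases: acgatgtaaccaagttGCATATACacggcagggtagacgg
MGD2, chr5:6896433-6896462, plus strand, 14 bases: gttgttatatactactGAATATTCttttgt
SQD2, chr5:90434-90473, minus strand, 340 bases: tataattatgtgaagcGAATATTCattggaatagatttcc

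NPC4, MGD2 and SQD2 carried the same 8 letters at this place, while the match of NPC5 lay farthest from its start among the 6 genes. GDPD1 had 4 matches, of which those 127 and 63 bases before the start fall in the 300 bases printed here (chr3:350011-350310, minus strand, matches in capitals). PLDZ2 also had 4 matches, NPC4 had 3, MGD2 had 2, and NPC5 and SQD2 had 1 each.
GDPD1: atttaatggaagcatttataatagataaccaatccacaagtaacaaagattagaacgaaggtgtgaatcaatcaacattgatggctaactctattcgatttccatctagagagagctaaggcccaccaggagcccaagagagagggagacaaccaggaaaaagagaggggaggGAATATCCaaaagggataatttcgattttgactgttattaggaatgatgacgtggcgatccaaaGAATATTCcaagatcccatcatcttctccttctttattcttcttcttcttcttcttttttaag

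No match was found before MGD3 or SQD1, which says only that these letters are not in that window. The windows of PLDZ2, MGD2, SQD1 and GDPD1 each overlap 1 other annotated gene. Sequences are from the RefSeq TAIR10.1 assembly, whose gene coordinates were the same as those of the deposited files for 99.94% of shared genes. A match is a description of sequence and not evidence of binding.

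**Figure D1:**
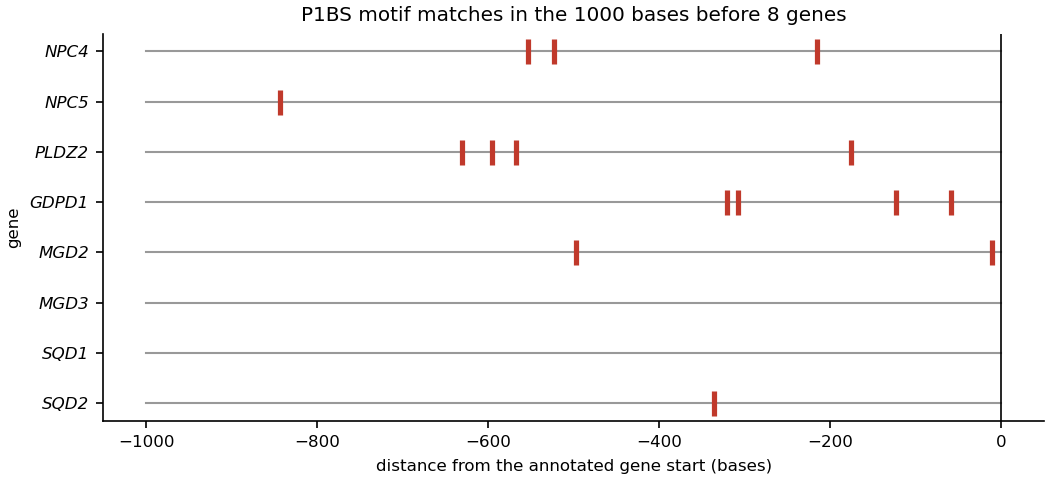
Positions of P1BS matches (red ticks, at the match's middle) in the 1000 bases before each of the 8 genes, with distance to the annotated gene start in bases on the horizontal axis and 1 row a gene. NPC4, PLDZ2, GDPD1 and MGD2 have a match within 300 bases of the start, and MGD3 and SQD1 have none in the window.

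Al raised the transcripts of lipid remodelling as a set of small to moderate increases. Over the mean of the 3 genotypes' responses, all 7 genes that could be tested, of the 8, rose, from 1.77-fold for GDPD1 to 2.81-fold for MGD3, where 6.13% of all 21650 genes tested were called higher. The median log2 change of the 7 genes was 1.15, against 0.00 over all genes. NPC5 was close to absent and was not tested, so the 7 tested genes are not all members. In every one of the 7 genes the group with the highest mean level was als3-1 with Al and the next was sog1-7 with Al. The 7 genes varied together across libraries, and how many of all genes share this order was not counted. In the main edgeR test at 1.5 mM, none was called in als3-1 against sog1-7, where 6.69% of all genes were called in either direction. None was called in sog1-7 against wild type either, where 7.4% of all genes were.

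Calls rest on the quasi-likelihood test of edgeR, with p adjusted by Benjamini-Hochberg over all tested genes and a limit of 0.05, and changes are log2 fold changes ± SE unless stated. In als3-1, 6 of the 7 genes rose, with a median of 1.28 over the 7 against 0.02 over all genes and 4.56% of all genes called higher. In sog1-7, NPC4, MGD2 and SQD2 rose, with a median of 1.33 against -0.00 and 0.739% of all genes called higher. In wild type none was called, with a median of 0.80 and 0.896% of all genes called higher. There 5 of the 7 had an unadjusted p under 0.05 in edgeR, against 2224 of all 21650 genes in either direction. DESeq2 called 1 of the 7, where it called 343 of 21646 genes higher. The estimates were above 0 for all 7 genes in each genotype.

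Libraries with the same replicate number varied together in each genotype, and an edgeR fit that keeps the replicate number as a block (the blocked fit) called more genes. It called 6 of the 7 in wild type, where 1.72% of all genes were called higher. It called all 7 in als3-1 (8.42% of all genes), all 7 in sog1-7 (1.62%) and all 7 over the mean response (9.88%). Replicate 2 was the lowest of the 3 libraries in 32 of 42 combinations of gene and group, while in sog1-7 at 0 mM replicate 4 was lowest for 5 of 7 genes. Without the 3 low-rRNA libraries and without the block, 1 gene was called in wild type (1.1% of all genes called higher), 6 in als3-1 (changes of 1.19 to 1.93, with 3.89%), 3 in sog1-7 (changes of 0.82 to 2.03, with 0.415%) and 7 over the mean (5.81%).

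**Figure D2:**
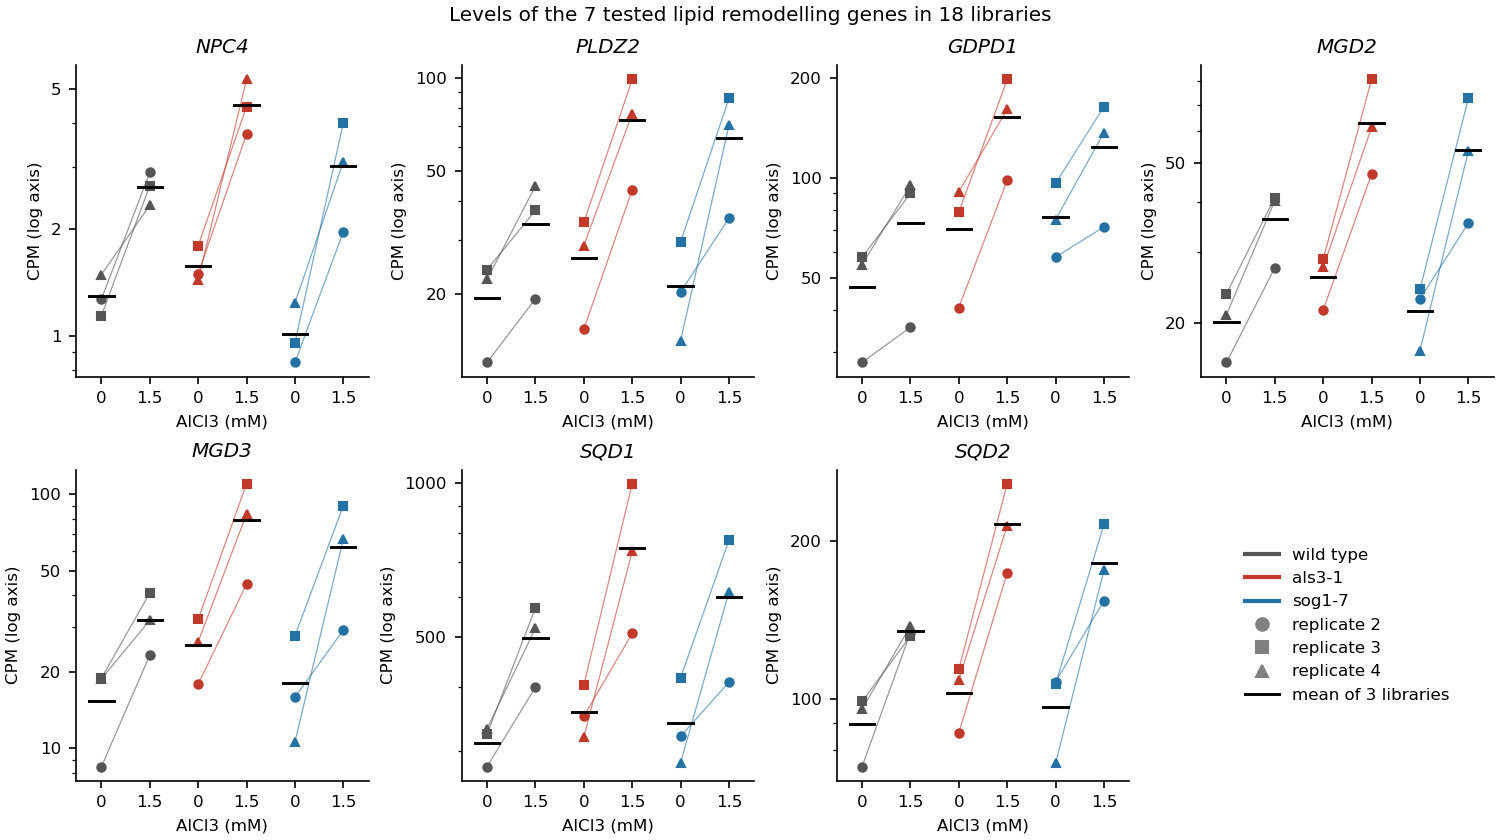
CPM (log axis) of the 7 tested genes in each of 18 libraries, by AlCl3 concentration and genotype. Points are libraries, thin lines join libraries of the same replicate number, and black bars are means of 3 libraries. Every line rises from 0 to 1.5 mM, and the wild type bars at 1.5 mM lie below those of both mutants in every panel.

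NPC4, a phospholipase C that cuts phospholipids into diacylglycerol and a phosphorylated head group, had the lowest level per length of the 7 tested genes and rested on 32 to 180 counts a library. In wild type it stood at 1.27, 1.14 and 1.49 CPM at 0 mM (replicates 2, 3 and 4, the order used throughout) and at 2.9, 2.66 and 2.34 CPM at 1.5 mM. In als3-1 the levels were 1.5, 1.8 and 1.44 CPM without Al and 3.72, 4.45 and 5.31 CPM with it. In sog1-7 they were 0.841, 0.956 and 1.24 CPM without Al and 1.97, 4.01 and 3.11 CPM with it. The libraries with and without Al did not overlap in any genotype. NPC4 rose by 1.51 ± 0.24 in als3-1 (edgeR adjusted p = 0.000921) and by 1.58 ± 0.25 in sog1-7 (adjusted p = 0.00344), and both calls held without any 1 library of the 2 groups. The wild type value of 1.02 ± 0.25 narrowly missed the threshold (adjusted p = 0.0525) and passed it in the blocked fit (1.03 ± 0.24, adjusted p = 0.0254).

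NPC5, the neighbour of NPC4 and a phospholipase C of the same family, gave 3 counts over all 18 libraries. Of these, 2 counts lay in sog1-7 0 mM replicate 2 and 1 in als3-1 0 mM replicate 4. All Al-treated libraries were at 0. Depending on the library, this allows a level of up to 0.0673 to 0.104 per 1000000 counts before TMM scaling. No Al response of NPC5 was therefore detectable at this depth. How reads that fit both neighbours were counted is not given in the sources used here, so the split between NPC4 and NPC5 is uncertain.

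PLDZ2 encodes phospholipase D zeta 2, which turns phospholipids into phosphatidic acid and a free head group. Its wild type levels were 12, 24 and 22.3 CPM without Al and 19.3, 37.3 and 44.8 CPM with it, so the 2 groups overlapped. In both mutants the groups did not overlap. The als3-1 libraries stood at 15.4, 34.1 and 28.7 CPM without Al and at 43.5, 99.2 and 76.9 CPM with it, and the sog1-7 libraries at 20.3, 29.5 and 14.1 CPM and at 35.2, 86.1 and 70.5 CPM. Replicate 2 was low in both Al-treated mutants. The change was 1.49 ± 0.43 in als3-1 (edgeR adjusted p = 0.0362), 1.58 ± 0.43 in sog1-7 (adjusted p = 0.108, and 0.00347 in the blocked fit) and 0.80 ± 0.43 in wild type (adjusted p = 0.593). The als3-1 call was lost without any 1 of 5 of the 6 libraries compared, all but als3-1 1.5 mM replicate 2, with adjusted p up to 0.148.

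GDPD1, a plastid glycerophosphodiester phosphodiesterase that frees glycerol 3-phosphate from deacylated phospholipids, had the smallest mean response of the 7 and a wide spread between replicates. Wild type libraries stood at 27.9, 57.8 and 54.9 CPM without Al and at 35.6, 89.9 and 95.1 CPM with it. The sog1-7 libraries stood at 57.9, 96.4 and 75 CPM and at 71.3, 164 and 137 CPM. In both genotypes the groups overlapped because replicate 2 was low at both concentrations, while every replicate number was higher with Al than without. The als3-1 libraries did not overlap, with 40.8, 79 and 91 CPM without Al and 98.5, 198 and 161 CPM with it. None of the 3 changes was called without the block: 0.65 ± 0.42 in wild type (adjusted p = 0.72), 1.12 ± 0.42 in als3-1 (adjusted p = 0.109) and 0.70 ± 0.42 in sog1-7 (adjusted p = 0.792) by edgeR. In the blocked fit all 3 were, with adjusted p = 0.0371, 0.000184 and 0.0364 in that order. The call over the mean response (0.82 ± 0.24, adjusted p = 0.0337) was lost without any 1 of 10 of the 18 libraries, with adjusted p up to 0.0772. Those 10 were als3-1 0 mM replicate 2 and 1.5 mM replicates 3 and 4, sog1-7 0 mM replicates 2 and 4 and 1.5 mM replicates 3 and 4, and wild type 0 mM replicate 2 and 1.5 mM replicates 3 and 4.

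MGD2 and MGD3 make monogalactosyldiacylglycerol in the outer plastid envelope and are the galactolipid synthases known for their response to phosphate supply. MGD2 stood at 15.9, 23.6 and 20.9 CPM in wild type without Al and at 27.4, 41 and 40.3 CPM with it. The als3-1 libraries held 21.5, 28.8 and 27.5 CPM without Al and 47, 80.9 and 61.4 CPM with it, and the sog1-7 libraries 22.9, 24.2 and 17 CPM and 35.4, 72.5 and 53.6 CPM. The groups did not overlap in any genotype. MGD2 rose by 1.28 ± 0.26 in als3-1 (edgeR adjusted p = 0.00498), a call that no single library ended. The sog1-7 change of 1.33 ± 0.26 was also called (adjusted p = 0.0162), but was lost on leaving out sog1-7 replicate 2 or 4 at 0 mM, or replicate 3 or 4 at 1.5 mM (up to 0.0945). In wild type the change of 0.85 ± 0.26 missed the threshold (adjusted p = 0.148) and passed it in the blocked fit (adjusted p = 0.0106).

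MGD3 had the highest mean response of the 7 genes. Its libraries stood at 8.47, 18.9 and 18.8 CPM in wild type without Al and at 23.3, 40.9 and 31.9 CPM with it. In als3-1 they stood at 17.9, 32.2 and 26.3 CPM and at 44.3, 110 and 83.6 CPM, and in sog1-7 at 15.9, 27.7 and 10.6 CPM and at 29.2, 90.2 and 66.6 CPM. As for MGD2, no genotype's groups overlapped, although the lowest treated sog1-7 library lay close to the highest untreated one. The change was 1.64 ± 0.46 in als3-1 (edgeR adjusted p = 0.0302), 1.78 ± 0.46 in sog1-7 (adjusted p = 0.084, and 0.00223 in the blocked fit) and 1.05 ± 0.46 in wild type (adjusted p = 0.408, and 0.0287 in the blocked fit). As for PLDZ2, the als3-1 call was lost without any 1 of the libraries compared other than als3-1 1.5 mM replicate 2, with adjusted p up to 0.13.

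SQD1 makes UDP-sulfoquinovose and SQD2 transfers the sulfoquinovose to diacylglycerol, the closing step of sulfolipid synthesis. SQD1 stood at 280, 324 and 332 CPM in wild type without Al and at 400, 571 and 521 CPM with it. The als3-1 levels were 351, 404 and 320 CPM without Al and 509, 996 and 735 CPM with it, and the sog1-7 levels were 321, 417 and 285 CPM and 409, 773 and 613 CPM. The groups overlapped in sog1-7 alone, where the treated replicate 2 lay just under the untreated replicate 3. SQD1 rose by 1.06 ± 0.25 in als3-1 (edgeR adjusted p = 0.013), but not past the threshold without als3-1 0 mM replicate 4 or 1.5 mM replicate 3 (adjusted p up to 0.0791). The changes of 0.67 ± 0.25 in wild type (adjusted p = 0.276) and 0.81 ± 0.25 in sog1-7 (adjusted p = 0.187) were called in the blocked fit (adjusted p = 0.0401 and 0.0199).

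SQD2 had the smallest SE of the 7 genes. Wild type stood at 74.5, 99.1 and 95.8 CPM without Al and at 134, 132 and 138 CPM with it. The als3-1 libraries held 86.4, 114 and 109 CPM and 174, 257 and 214 CPM, and the sog1-7 libraries 108, 107 and 75.6 CPM and 154, 215 and 176 CPM. No genotype's groups overlapped. SQD2 rose by 1.06 ± 0.18 in als3-1 (edgeR adjusted p = 0.00144), which no single library ended. It rose by 0.91 ± 0.18 in sog1-7 (adjusted p = 0.0173), but not on leaving out sog1-7 replicate 4 at 0 mM, or replicate 3 or 4 at 1.5 mM (up to 0.097). The wild type change of 0.58 ± 0.18 was called in the blocked fit only (adjusted p = 0.148, and 0.0373 with the block).

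**Figure D3:**
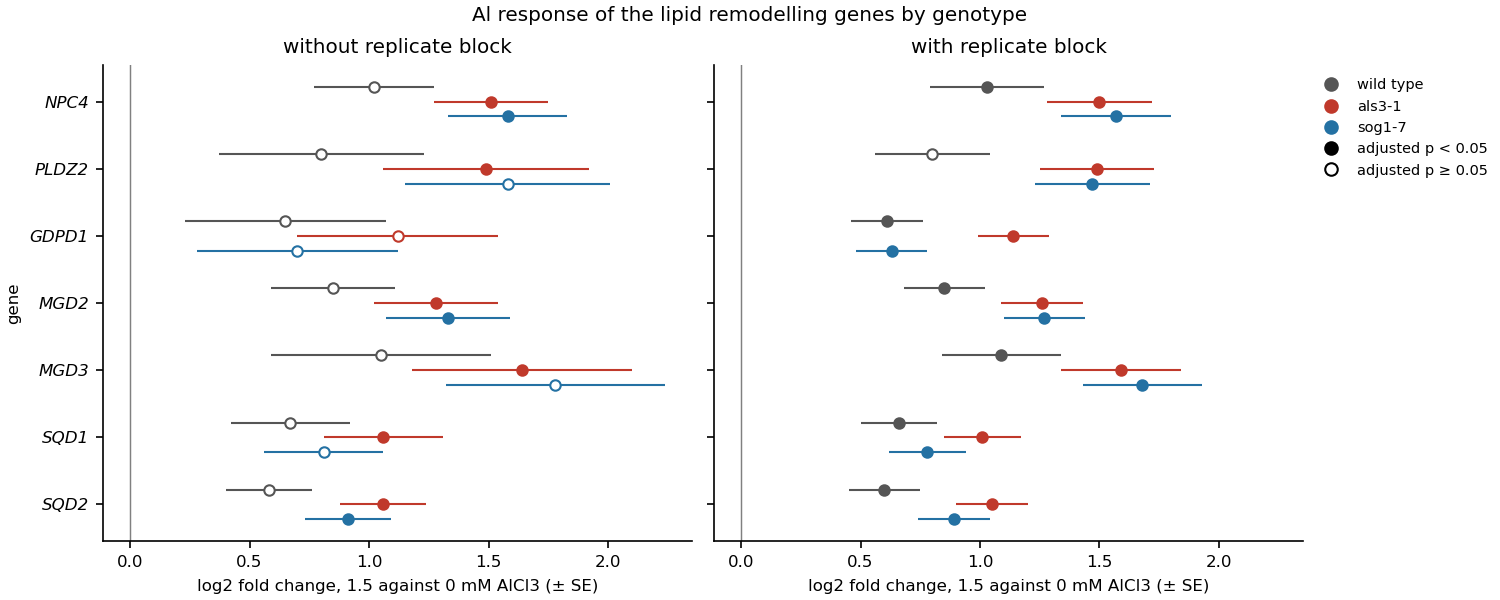
Log2 fold changes from 0 to 1.5 mM AlCl3 with their SE for the 7 tested genes in 3 genotypes, without (left) and with (right) the replicate block. Filled points have an adjusted p under 0.05: 0, 6 and 3 of 7 in wild type, als3-1 and sog1-7 on the left and 6, 7 and 7 on the right.

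Although more of these genes were called in als3-1 than in wild type, the responses themselves were not shown to differ. The als3-1 response minus the wild type response was 0.38 to 0.69 over the 7 genes, with SE of 0.25 to 0.64, and none was called, while 0.402% of all genes were called in either direction. The sog1-7 response minus the wild type response was 0.05 to 0.79, again with none called, against 0.00462% of all genes. Both differences were above 0 for all 7 genes, but they share the same wild type libraries. The als3-1 response minus the sog1-7 response was -0.14 to 0.42, with none called against 1.15% of all genes. No gene of the 7 reached an unadjusted p under 0.05 in any of the 3 differences with edgeR without the block, and DESeq2 also called none. The blocked fit called none of the 7 either, with 0.697%, 0.0185% and 1.9% of all genes called in either direction. Its lowest adjusted p for als3-1 minus wild type was 0.292, for GDPD1 (0.53 ± 0.21).

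At 0 mM the lipid genes were not shown to differ between genotypes without the block. Estimates of als3-1 against wild type were 0.20 to 0.72 and none was called (none at an unadjusted p under 0.05 in edgeR, and none by DESeq2), while 2.32% of all genes were called in either direction. The blocked fit called GDPD1 alone (0.58 ± 0.15, adjusted p = 0.0314), with 3.03% of all genes called higher. Estimates of sog1-7 against wild type at 0 mM were -0.37 for NPC4 and 0.09 to 0.70 for the other 6 genes. None was called (none at an unadjusted p under 0.05 in edgeR, none by DESeq2) against 10.2% of all genes. The summed level of 4 shoot markers at 0 mM was 22239 to 27128 CPM in wild type. This sum was 8791 to 16106 CPM in als3-1 and 5249 to 8924 CPM in sog1-7, without overlap with wild type. Its part in these comparisons was not tested.

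With Al, all 7 genes stood higher in als3-1 than in wild type in group mean, by 0.59 for SQD1 to 1.31 for MGD3. SQD2 alone was called (0.68 ± 0.18, edgeR adjusted p = 0.0384), where 2.55% of all genes were called higher. The call was lost without any 1 of 5 of the 6 libraries compared, all but als3-1 1.5 mM replicate 2, with adjusted p up to 0.162. The blocked fit called all 7, with 5.69% of all genes called higher, and 5 of the 7 were called without the low-rRNA libraries, with 2.57% of all genes called higher. MGD3 (1.31 ± 0.45, adjusted p = 0.11) and PLDZ2 (1.12 ± 0.43, adjusted p = 0.156) had the greatest differences, with blocked adjusted p = 0.00574 and 0.00828. The summed level of 4 shoot markers was 13511 to 18188 CPM in als3-1 and 15798 to 27330 CPM in wild type at 1.5 mM, and its part in this comparison was not tested.

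The sog1-7 seedlings with Al stood between the other genotypes. Against wild type at 1.5 mM the estimates were 0.20 for NPC4 to 0.95 for MGD3, with none called without the block (3 at an unadjusted p under 0.05 in edgeR, none by DESeq2) and 7.4% of all genes called in either direction. The blocked fit called PLDZ2 (0.89 ± 0.23, adjusted p = 0.019), MGD2 (0.54 ± 0.16, adjusted p = 0.0362), MGD3 (0.86 ± 0.25, adjusted p = 0.0292) and GDPD1 (0.79 ± 0.15, adjusted p = 0.00315), with 8.49% of all genes called higher. The summed shoot markers were 9075 to 12109 CPM in these sog1-7 libraries, below every wild type library at 1.5 mM, and their part was not tested. Between als3-1 and sog1-7 at 1.5 mM the differences were 0.20 to 0.57, none called against 6.69% of all genes, and NPC4 was the only gene at an unadjusted p under 0.05. These comparisons share libraries with each other and with the Al responses.

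The order of the 6 groups was the same in 5 of the 7 genes, PLDZ2, MGD2, MGD3, SQD1 and SQD2. The share of all genes with this order was not counted. The order ran upward from wild type, sog1-7 and als3-1 without Al to wild type, sog1-7 and als3-1 with Al. For MGD3 the means were 15.4 ± 6.01, 18 ± 8.75 and 25.5 ± 7.19 CPM without Al and 32 ± 8.83, 62 ± 30.8 and 79.4 ± 33.2 CPM with it (SD, n = 3 each). Neighbouring groups in this order overlapped in mean ± SD for MGD3. NPC4 differed in that untreated sog1-7 was lowest, at 1.01 ± 0.208 CPM against 1.3 ± 0.175 CPM in wild type. GDPD1 differed in that untreated sog1-7 (76.4 ± 19.3 CPM) and untreated als3-1 (70.3 ± 26.2 CPM) lay beside treated wild type (73.5 ± 33 CPM).

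Levels of different genes were compared per length, in the deposited FPKM values (fragments per kilobase and per 1000000 mapped fragments). In untreated wild type SQD1 was highest at 129 ± 11 FPKM, above SQD2 at 30.9 ± 4.83 and GDPD1 at 30.4 ± 8.51 FPKM, which did not differ beyond their spread. MGD2 at 8.25 ± 1.52 and MGD3 at 6.64 ± 2.4 FPKM also overlapped, as did MGD3 and PLDZ2 at 4.26 ± 1.41 FPKM. NPC4 stood at 0.53 ± 0.0626 FPKM (SD, n = 3 each), and NPC5 was at 0 in all 3 libraries. In treated als3-1, SQD1 reached 356 ± 103, GDPD1 114 ± 28.6, SQD2 86.3 ± 14.8, MGD3 38.6 ± 14.3, MGD2 29.7 ± 7, PLDZ2 18.4 ± 6.06 and NPC4 2.08 ± 0.1 FPKM. GDPD1 with SQD2, MGD3 with MGD2, and PLDZ2 with each of MGD2 and MGD3 overlapped there in mean ± SD. The ratio of SQD1 to SQD2, successive enzymes of 1 pathway, was 3.93 to 4.43 in the 6 group means and 3.16 to 5.22 over single libraries.

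MGD2 with MGD3, PLDZ2, GDPD1 and NPC4 held a greater mean share of their family's summed FPKM with Al in each genotype, though some groups overlapped. MGD2 and MGD3 together held 30.5% ± 6.04 of the FPKM of the 3 MGD genes in untreated wild type and 42.1% ± 8.1 in treated wild type (SD, n = 3 each). The share went from 38.4% ± 5.22 to 59.9% ± 6.34 in als3-1 and from 34.8% ± 4.53 to 55.9% ± 8.56 in sog1-7. In both mutants every treated library lay above every untreated one, and in wild type the groups overlapped. The remainder is MGD1, the main galactolipid synthase of the inner plastid envelope, whose level was 89.6 ± 2.9 CPM in untreated and 104 ± 12.1 CPM in treated wild type.

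PLDZ2 held 32.6% ± 8.93 of the FPKM of the zeta-type PLD pair, the other being PLDP1, in untreated wild type and 43.3% ± 10.8 in treated wild type. The wild type groups overlapped, at 22.4% to 38.9% without Al and 31.5% to 52.6% with it. The share went from 40.9% ± 10.6 to 63.3% ± 9.4 in als3-1 and from 38.9% ± 7.3 to 63.7% ± 10.8 in sog1-7, and PLDZ2 stood above PLDP1 in every treated mutant library, at 51.3% or more. GDPD1 went from 37.4% to 45.5% of the 6 GDPD genes in wild type and from 47% to 57.1% in als3-1. In sog1-7 it went from 49.5% to 54.3%, and the groups overlapped in each genotype. In sog1-7 replicate 2 its share was 45.5% without Al and 45.3% with it. NPC4 stayed a minor transcript of the 6 NPC genes, at 0.871% to 1.7% in wild type, 1.21% to 2.86% in als3-1 and 0.825% to 2.25% in sog1-7. The shares were not tested.

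**Figure D4:**
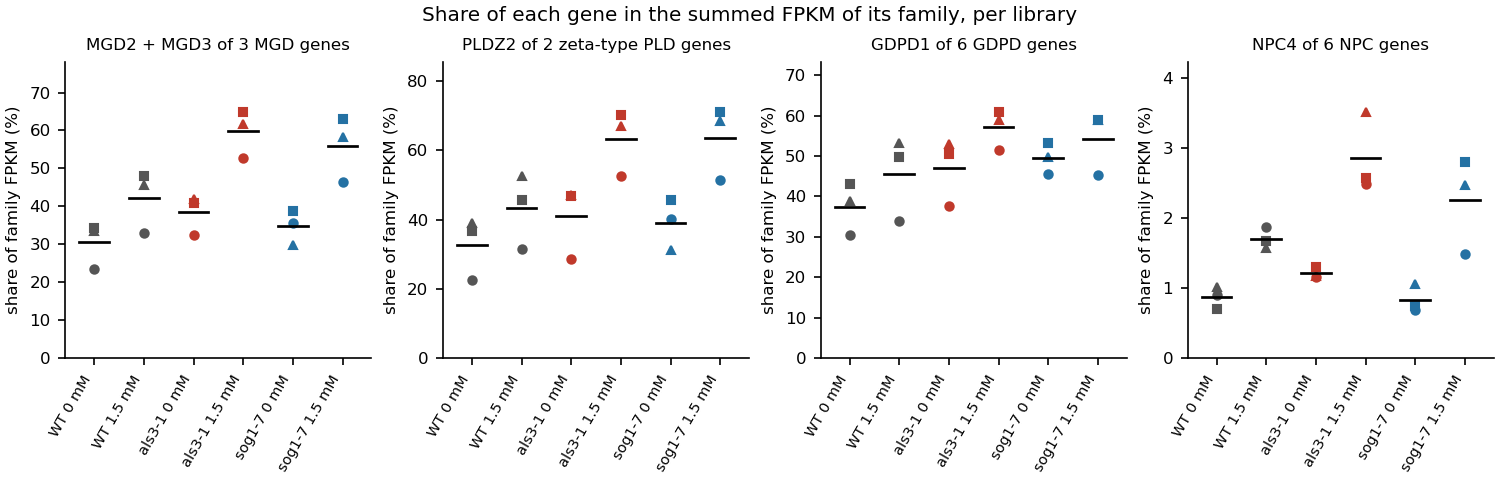
Share of each gene in the summed FPKM of its family (%) in the 6 groups. Points are libraries (circle, square and triangle for replicates 2, 3 and 4) and bars are means of 3 libraries. MGD2 with MGD3 and PLDZ2 pass 50% in group mean in the treated als3-1 and sog1-7 groups, and NPC4 stays under 4% in every library.

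The same lipid families were read through 23 further genes, some of them also known to respond to phosphate. Of these, all tested, none was called in wild type (2 at an unadjusted p under 0.05) or sog1-7 (4 at an unadjusted p under 0.05) with edgeR without the block, and 6 rose and none fell in als3-1. Of all genes, 0.896%, 0.739% and 4.56% were called higher in wild type, sog1-7 and als3-1. An unadjusted p under 0.05 was found for 2224 of all 21650 genes in wild type and 1852 in sog1-7. The blocked fit called none of the 23 in wild type, GDPD6 in sog1-7 (1.76 ± 0.37, adjusted p = 0.019), and 7 higher and 1 lower in als3-1, which added DGD2 and, as the lower gene, the phospholipase gene NPC3 (-0.32 ± 0.10, adjusted p = 0.039). With the block, 1.72%, 1.62% and 8.42% of all genes were called higher in wild type, sog1-7 and als3-1, and 18.9% in either direction in als3-1. The medians of the 23 genes were 0.10, 0.12 and 0.21 in wild type, sog1-7 and als3-1. Those that rose in als3-1 were the phosphodiesterase genes GDPD6 (1.49 ± 0.44, adjusted p = 0.0396), GDPD3 (1.29 ± 0.33, adjusted p = 0.0175), GDPD5 (0.58 ± 0.14, adjusted p = 0.0132) and GDPD4 (0.47 ± 0.13, adjusted p = 0.0266), the phospholipase gene NPC6 (0.47 ± 0.13, adjusted p = 0.0231) and UGP3. UGP3, which makes UDP-glucose in plastids for sulfolipid, rose by 0.89 ± 0.18 (adjusted p = 0.0053), the only 1 of the 6 calls that no left-out library ended. The GDPD6 call was lost without any 1 library compared other than als3-1 1.5 mM replicate 2, and the NPC6 call without any other than als3-1 1.5 mM replicate 4. Adjusted p also passed 0.05 for GDPD4 without als3-1 replicate 2 or 3 at either concentration, for GDPD3 without replicate 3 or 4 at 0 mM or 2 at 1.5 mM, and for GDPD5 without replicate 4 at 0 mM or 3 at 1.5 mM. UGP3 stood at 150, 169 and 144 CPM in untreated and 241, 345 and 270 CPM in treated als3-1. DGD2, which adds the second galactose of digalactolipid, changed by 0.27 ± 0.09 in als3-1 (adjusted p = 0.058, and 0.0245 in the blocked fit).

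Of 4 listed genes of head group metabolism and transport, 3 had estimates above 0 and 1, NMT1, below 0 in each genotype. Without the block 0, 2 and 1 were called higher in wild type, als3-1 and sog1-7, against 0.896%, 4.56% and 0.739% of all genes. The blocked fit called 2, 3 and 2 higher, against 1.72%, 8.42% and 1.62%. G3PP1 was called in no genotype without the block. Its means at 0 and 1.5 mM were 70.7 and 116 CPM in wild type and 84 and 166 CPM in als3-1. In sog1-7 they were 108 and 149 CPM. PEPC1, a phosphatase of phosphoethanolamine and phosphocholine, rose by 1.74 ± 0.36 in als3-1 (edgeR adjusted p = 0.0055) and by 2.44 ± 0.37 in sog1-7 (adjusted p = 0.00252). In wild type PEPC1 was called in the blocked fit only (1.29 ± 0.32, adjusted p = 0.0382). Its sog1-7 libraries went from 2.97, 2.38 and 1.82 CPM to 8.79, 16.4 and 14 CPM. PS2, a related phosphatase, rose by 1.69 ± 0.40 in als3-1 (adjusted p = 0.0125), a call lost without als3-1 0 mM replicate 2 or 1.5 mM replicate 3 (adjusted p up to 0.0603), and the blocked fit also called it in wild type (1.01 ± 0.26, adjusted p = 0.0475) and sog1-7 (1.39 ± 0.26, adjusted p = 0.00972). NMT1, which methylates phosphoethanolamine on the way to phosphocholine and so to phosphatidylcholine, fell by 1.56 ± 0.15 in als3-1 (adjusted p = 1.06e-05). The NMT1 libraries of als3-1 stood at 314, 348 and 327 CPM without Al and at 94.2, 125 and 116 CPM with it, the reverse of the lipid remodelling genes. Its change was -0.61 ± 0.15 in wild type (adjusted p = 0.052, and 0.0252 in the blocked fit) and -0.49 ± 0.15 in sog1-7 (adjusted p = 0.175). The fall in als3-1 was greater than in sog1-7, by a difference of -1.07 ± 0.21 (adjusted p = 0.0189).

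A list of 11 genes of phosphate starvation signalling, called reporters here, includes the regulator PHR1 itself, with group means of 43.4 to 50.7 CPM. Of the 11, 2 rose in wild type, 5 in als3-1 and 2 in sog1-7, and none fell. The medians were 0.63, 0.72 and 0.59, where 0.896%, 4.56% and 0.739% of all genes were called higher. The blocked fit called 5, 7 and 5 higher, against 1.72%, 8.42% and 1.62% of all genes. IPS1 and AT4, non-coding RNAs that hold back the microRNA miR399, rose in all 3 genotypes, with changes of 2.59, 2.84 and 2.74 for IPS1 and 1.64, 2.24 and 1.92 for AT4 in wild type, als3-1 and sog1-7. SPX3 (1.72 ± 0.43), PHT1;4 (1.28 ± 0.22) and PHO1;H1 (0.72 ± 0.20) were called in als3-1, with edgeR adjusted p = 0.0158, 0.00159 and 0.0317, and no reporter differed between genotypes in the test of the responses without the block. The blocked fit called PHT1;4, a phosphate transporter, in the als3-1 response minus the wild type response (0.64 ± 0.12, adjusted p = 0.0255, with 0.697% of all genes called in either direction) and in the als3-1 response minus the sog1-7 response (0.60 ± 0.12, adjusted p = 0.0196, with 1.9%). The SPX3 call was lost without als3-1 0 mM replicate 2 or 1.5 mM replicate 3, and the PHO1;H1 call without any 1 library compared other than als3-1 0 mM replicate 2. P1BS letters lay within 1000 bases before 5 of these 11 genes (45.5%), 2 of the 4 head group genes (50%) and 6 of the 23 other family genes (26.1%).

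**Figure D5:**
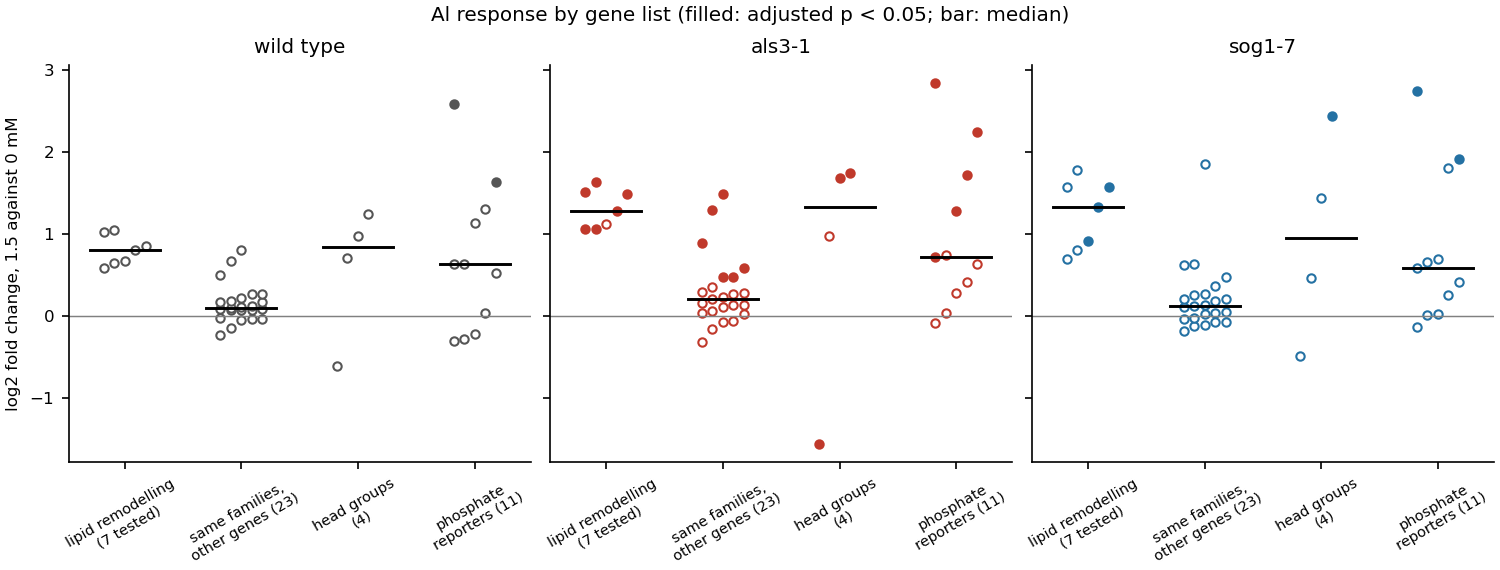
Log2 fold changes from 0 to 1.5 mM AlCl3 of each tested gene in 4 gene lists, 1 panel a genotype. Points are genes, filled where the adjusted p is under 0.05, and bars are list medians. All 7 lipid remodelling genes lie above 0 in each panel, with medians of 0.80, 1.28 and 1.33, while the 23 other family genes centre on 0.10, 0.21 and 0.12.

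Across the 18 libraries the 7 tested genes varied together. Pearson's r of log2 CPM was 0.62 for NPC4 with GDPD1, the lowest of the pairs, and reached 0.98 for PLDZ2 with MGD3 and for MGD2 with SQD2. Against the mean of the other 6 genes, r was 0.99 for MGD2, 0.98 for MGD3, 0.97 for PLDZ2, 0.96 for SQD1 and SQD2, and 0.84 for NPC4 and GDPD1. All points share libraries, depth, the Al contrast and the replicate numbers, so the values describe these libraries and carry no test.

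Among 17698 other tested genes with a mean log2 CPM of at least 1, PS2 had the profile most like the mean of the 7 genes (r = 0.97 over 18 libraries). It was followed by the beta-glucosidase gene BGLU44 (AT3G18080, r = 0.94), by PHF1 (AT3G52190, r = 0.94), which helps phosphate transporters leave the endoplasmic reticulum, by AT3G03790 (r = 0.93) and by the peroxidase gene PRXCB (AT3G49120, r = 0.93). UGP3 and GDPD5 (both r = 0.89) were the closest of the other family genes, and MGD1 stood at r = 0.57. NMT1 varied in the opposite direction, at r = -0.72.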

How the data were processed

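Whole-seedling poly(A) RNA was measured in 18 libraries of 6 groups with 3 replicates each. The deposited count values are whole reads per gene from featureCounts 2.0.0, and the deposited FPKM values came from Cufflinks 2.2.1, per the submitters' processing notes. STAR 2.7.3a, FastQC 0.11.7, DESeq2 1.36.0 and the build TAIR10 stand in the same notes. The kit was directional, per the labels' protocols. Neither the strand setting nor the handling of multi-mapping reads is given in the sources used here, which leaves overlapping and near-identical genes uncertain.

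Counts were tested with edgeR 4.0.16 in R 4.3.3 (quasi-likelihood, robust, TMM, filterByExpr by group) in 1 fit of 6 group means over all libraries, with Benjamini-Hochberg adjustment over 21650 genes, calls at 0.05 and a common biological coefficient of variation of 0.214. The fit was tested on simulated data. DESeq2 1.42.0 and limma 3.58.1 on log2(FPKM + 1) served as alternatives, along with RLE scaling, no filter, a replicate block, each library left out, the low-rRNA libraries left out, only the groups compared, a pseudocount of 0.1, and a filter at 1 FPKM in 3 libraries. The 285 organelle genes stood at 0 in every library. No pair of replicates was within sampling noise of each other (chi-square per degree of freedom at least 16.96).

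The labels give groups the same replicate numbers without saying what they mark. Deviations from group means correlated between same-numbered libraries with and without Al. The r was 0.241 to 0.271 in wild type, 0.206 to 0.369 in als3-1 and 0.535 to 0.755 in sog1-7. The numbers were therefore taken to pair the samples in the blocked fit, while the main fit held no block. Of the 15 pairs of groups, 13 had every same-number r over 0.1, and the exceptions were untreated wild type with either sog1-7 group.

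The text names all 8 members, the genes of 3 other lists called in an Al response, the 5 genes most like the members in profile and both mutated genes. DGD2, G3PP1, MGD1, PLDP1 and 4 organ markers were named outside this rule, after their values were seen. The members and lists were chosen with earlier results of these data known.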

Additional observations from a re-analysis of the deposited data

Results flagged for a closer look

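NMT1, the phosphoethanolamine methyltransferase gene, is listed because its Al response differed between als3-1 and sog1-7 by a test of the difference itself. The als3-1 response minus the sog1-7 response was -1.07 ± 0.21 on the log2 scale (edgeR adjusted p = 0.0189, and 0.0107 with the replicate block). Mean levels went from 330 ± 17.2 to 112 ± 15.9 CPM in als3-1 and from 355 ± 30.9 to 253 ± 10.3 CPM in sog1-7 (SD, n = 3 each), and the treated libraries of the 2 mutants did not overlap. The call was lost without als3-1 0 mM replicate 3, als3-1 1.5 mM replicate 2, sog1-7 0 mM replicate 2 or sog1-7 1.5 mM replicate 3, with adjusted p up to 0.0559. The difference between als3-1 and wild type was -0.95 ± 0.21 (adjusted p = 0.0795, and 0.043 with the block). Groups of 3 libraries are too small for a check of single outlying libraries.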

How the results depend on the processing

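Of 1234 alternative values for 72 single-gene results, 1051 kept their direction and side of the threshold, 86 gained a call, 96 lost one, and 1 changed sign, NPC4 in sog1-7 against wild type at 1.5 mM, at -0.06 without sog1-7 1.5 mM replicate 3 (-0.06 to 0.43 over the libraries left out). Counts of called members out of 7 moved as follows. With the replicate block, 6 were called for the Al response in wild type, 7 in als3-1 (6 without it), 7 in sog1-7, 1 for als3-1 against wild type at 0 mM and 7 at 1.5 mM, and 4 for sog1-7 against wild type at 1.5 mM. For sog1-7 against wild type at 0 mM, whose numbers did not pair (r = -0.050 to 0.224, with 4 of 6 libraries closest to their own number), the block called 1, GDPD1 (0.76 ± 0.15, edgeR adjusted p = 0.00311). The block changed no count of called members for the mean response, the 3 differences of responses or als3-1 against sog1-7 at 1.5 mM. DESeq2 called 1 in wild type, 5 in sog1-7 and 4 for als3-1 against wild type at 1.5 mM. Without the low-rRNA libraries 1 was called in wild type, 5 for als3-1 and 1 for sog1-7 against wild type at 1.5 mM. With both the block and those libraries left out, an alternative chosen after seeing the data, 7 were called in wild type and 7 in sog1-7, 3 for als3-1 against wild type at 0 mM and 7 at 1.5 mM, and 1 and 6 for sog1-7 against wild type. With only the groups compared, 4 were called in als3-1, 0 in sog1-7 and 0 for als3-1 against wild type at 1.5 mM. DESeq2 and the 3 FPKM settings each called 7 in als3-1. On FPKM, 4 were called for als3-1 against wild type at 1.5 mM with either pseudocount and with the filter on low values, and 1 in wild type with a pseudocount of 0.1. For als3-1 against wild type at 1.5 mM the median change over all genes was 0.138, 0.175 and 0.157 with pseudocounts of 1 and 0.1 and with the filter, against -0.003 by edgeR. Of all genes, 731 and 718 of 21650 and 581 of 19652 were called higher in these FPKM settings. Leaving out 1 library gave 3 to 6 called in als3-1, 1 to 4 in sog1-7, 6 to 7 for the mean, 0 to 1 for als3-1 against wild type at 1.5 mM and 0 to 0 elsewhere. Over all genes, 408, 2348 and 257 were called in the wild type, als3-1 and sog1-7 responses, against 803, 4085 and 573 with the block, 163, 1199 and 78 with only the groups compared, and 164, 1140 and 151 on filtered FPKM. DESeq2 called 722 in wild type and 542 in sog1-7. The cause of these changes was not tested. With 3 libraries a group, SE of 0.42 to 0.46 for PLDZ2, MGD3 and GDPD1 limits what can be called.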
